A study of Mus musculus with 12 samples.

Results

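Fetal mouse kidneys kept in culture, with and without activation of beta-catenin, were compared on the 6 arrays whose sample titles carry the higher numbers, out of 12 arrays in the series. They are called the higher run, and the other 6 arrays, with lower title numbers, the lower run; what the numbers mean is not in the labels. The groups of the higher run were chosen by title: wildtype 1, 2 and 3 are MKI3109N, MKI3110N and MKI3115N, and activated 1, 2 and 3 are MKI3111T, MKI3113T and MKI3114T. All kidneys were of the C57BL/6 strain. The pregnant mothers received tamoxifen (2 mg for each 40 g of weight) at 10.5 days post coitum, and this treatment is listed for the wildtype samples as well. Kidneys taken at 10.5 days post coitum were cultured for 3 to 4 days with insulin and transferrin (5 µg/mL) and selenium (5 ng/mL). The activated samples are labelled as kidneys with tumors. The labels name neither the beta-catenin allele nor the Cre line or the cells in which it acts, and separate animals or cultures are not stated for the replicates, so the p-values measure only the spread between these samples, which may be technical. The values are deposited array intensities, used as log2(intensity + 16) after quantile normalisation. Each gene was read from its probe set with the highest mean, which gave 12393 genes.

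In the canonical Wnt pathway a destruction complex of Axin, Apc and kinases marks beta-catenin for degradation, and a Wnt ligand bound to Frizzled and Lrp receptors stops this. Stabilised beta-catenin then enters the nucleus and activates genes together with Tcf and Lef factors, and several of these target genes encode inhibitors that feed back on the pathway. In the fetal kidney Wnt9b from the ureteric bud acts on nephron progenitors through beta-catenin. Wnt9b and Wnt4, a ligand of the induced mesenchyme, turn these cells into renal vesicles. Podocytes, proximal tubules and distal tubules form from the vesicles. In bulk tissue of this kind fewer cells of a type and less RNA per cell cannot be told apart.

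The 6 arrays were alike in brightness, with median intensities between 58.4 and 68.6. Correlations between arrays over all genes were 0.971 to 0.981 within a genotype and 0.970 to 0.980 across genotypes, so the genotypes were nearly as alike as replicates. In a principal component analysis the first component held 32.5% of the variance and placed wildtype 2 at -22.1 and activated 3 at -25.7, with the other 4 arrays between -5.02 and 18.7. Those 2 arrays had a low mean of Y-linked genes (4.48 and 4.24, against 7.54 to 8.22) and high Xist, the RNA that coats the inactive X chromosome (11.90 and 11.52). In activated 1 the Y-linked genes (7.54) and Xist (10.90) were both high. Activated 3 also stood apart in the Gapdh control, with a log2 ratio of 5' to 3' signal of -1.06 where the others lay between -2.61 and -2.09. The second component, with 20.5%, separated the genotypes, with wildtype between -18.2 and -9.44 and activated between 7.58 and 19.4. The brightest of 27 bacterial control probe sets read 5.27 in the higher run, and values at or below it are called dim.

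The first question was which genes differed between activated and wildtype kidneys. A single gene did after Benjamini-Hochberg adjustment in limma: Apcdd1, a membrane protein that binds Wnt ligands and inhibits the pathway, was higher in the activated kidneys. It was 1 of 12393 genes, or 0.00807%. At an unadjusted p under 0.05, 396 genes were higher (3.20% of those tested) and 392 were lower (3.16%). The 3 activated values lay entirely above the 3 wildtype values for 694 genes (5.60%) and entirely below them for 710 (5.73%). Those shares are the background against which the lists of related genes below are to be read. The second-smallest adjusted p was 0.134, and 46 genes differed by more than 1 on the log2 scale.

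Apcdd1 read 10.47, 10.50 and 10.35 in the wildtype arrays and 11.56, 11.41 and 11.59 in the activated arrays. The groups did not overlap, and the gap between them was several times the spread within either. The difference was 1.08 (SE 0.09, n = 3 against 3, limma adjusted p = 0.00689), a fold of 2.12 on the log2(intensity + 16) scale. The exact permutation test, two-sided, gave p = 0.1 for this gene, which is the smallest p that 3 against 3 arrays allow. Its 4 probe sets differed by 0.56 to 1.08, all higher in the activated arrays. Without wildtype 1, wildtype 3 or activated 1 the adjusted p no longer passed, and no gene was called, with 584, 861 and 723 genes at an unadjusted p under 0.05 in limma. Without wildtype 2 and activated 3 together, an alternative chosen after seeing the data, no gene was called either, with 843 genes at an unadjusted p under 0.05 in limma.

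**Figure D1:**
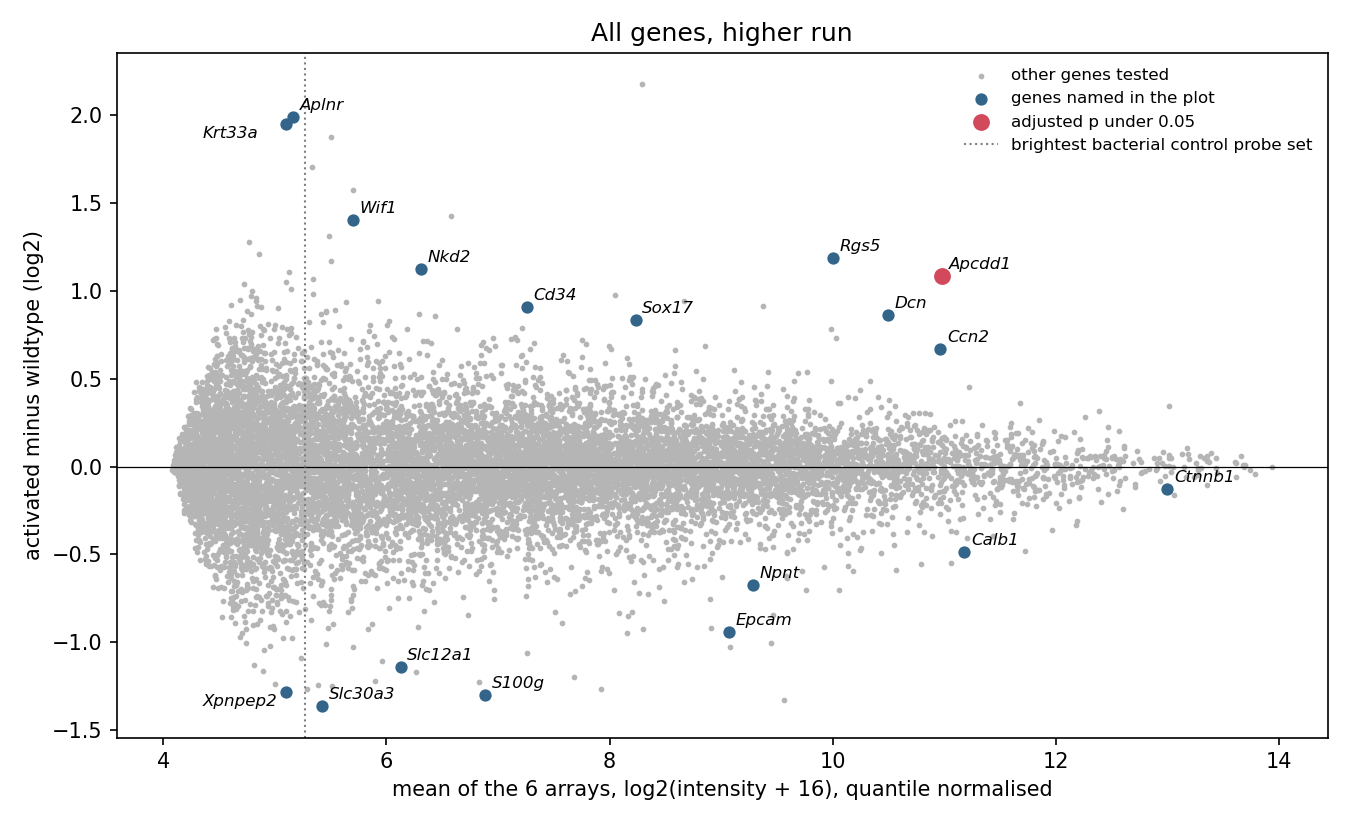
Each point is a gene of the higher run, with its mean over the 6 arrays on the x axis and activated minus wildtype on the y axis, both on the log2(intensity + 16) scale; the dotted line marks the brightest bacterial control probe set at 5.27. Apcdd1 (red, difference 1.08) is the only gene past the adjusted threshold, and several genes with larger differences, such as Aplnr (1.98) and Krt33a (1.95), lie near the dotted line.

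Ctnnb1, the gene of beta-catenin itself, read 13.06, 13.12 and 13.01 in wildtype and 13.01, 12.86 and 12.94 in activated kidneys. The groups overlapped, and the difference was -0.13 (SE 0.06, 95% interval -0.27 to 0.02). Its 2 other probe sets differed by -0.77 (SE 0.62) and -0.42 (SE 0.24), and the groups overlapped in both. These 3' probe sets measure the amount of the transcript, and whether any of them covers a changed part of the gene is not stated in the labels, so they do not check the genotype.

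Inhibitors of the Wnt pathway were mostly higher in the activated kidneys, led by Wif1, Nkd2 and Apcdd1. The list joins feedback inhibitors with other antagonists of the pathway, and all are called feedback inhibitors here for short. Of 24 listed, 19 were measured, and 16 of these were higher. Their median difference was 0.35, against 0.00 over all genes. Of the 19, 5 (26.3%) were higher at an unadjusted p under 0.05, beside 3.20% of all genes, and none was lower. The summed intensity of the list was 2800 to 3190 in wildtype and 4730 to 5080 in activated arrays. Apcdd1, the brightest member (log2 means 10.44 and 11.52), weighs most in that sum, so it does not describe the other members. Without wildtype 2 and activated 3 the count was 17 of 19 higher, with a median of 0.26. Without wildtype 3, and again without activated 3, 13 of 19 were higher, and with a pseudocount of 64 the median was 0.19.

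After Apcdd1 came the secreted and intracellular inhibitors Wif1 and Nkd2. The stretches around their transcription starts are printed here with that of Dkk1, another inhibitor on the list. Each runs 5′ to 3′ on the gene's strand, from 250 bases before the start to 50 after it, from RefSeq in build GRCm38.p6. Capitals mark CTTTGA, the core of the Tcf and Lef motif, read on either strand. Wif1 lies at chr10:121033754-121034053 on the plus strand, Nkd2 at chr13:73847582-73847881 on the minus strand and Dkk1 at chr19:30549447-30549746 on the minus strand.
Wif1: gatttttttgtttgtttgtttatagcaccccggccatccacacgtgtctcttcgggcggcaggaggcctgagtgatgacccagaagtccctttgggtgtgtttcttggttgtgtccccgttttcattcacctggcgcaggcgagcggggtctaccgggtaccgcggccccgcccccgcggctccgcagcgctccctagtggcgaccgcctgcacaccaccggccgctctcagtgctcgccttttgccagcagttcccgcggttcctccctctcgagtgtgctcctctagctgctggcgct
Nkd2: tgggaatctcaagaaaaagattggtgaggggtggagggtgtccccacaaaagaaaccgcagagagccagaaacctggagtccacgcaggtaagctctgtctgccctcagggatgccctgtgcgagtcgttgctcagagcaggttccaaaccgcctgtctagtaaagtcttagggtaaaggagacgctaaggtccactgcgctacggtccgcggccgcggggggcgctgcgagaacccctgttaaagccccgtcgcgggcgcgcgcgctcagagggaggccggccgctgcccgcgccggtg
Dkk1: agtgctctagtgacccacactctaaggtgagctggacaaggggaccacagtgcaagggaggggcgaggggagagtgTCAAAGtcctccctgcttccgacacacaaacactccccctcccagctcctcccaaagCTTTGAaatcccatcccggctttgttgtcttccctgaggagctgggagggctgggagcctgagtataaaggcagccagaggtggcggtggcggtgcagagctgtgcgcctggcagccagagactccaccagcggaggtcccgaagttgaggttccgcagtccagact
The Dkk1 stretch holds the motif at 2 places and the other two stretches do not hold it. A promoter was listed for 12 of the 19 feedback genes, and 3 of these (25%) held the motif. Among other Wnt targets it was 5 of 14 (35.7%), and among all genes tested 1538 of 9887 (15.6%). The genes with it among the feedback inhibitors were Dkk1, Frzb and Tnfrsf19. A match describes these letters and is not a binding site, and its absence says nothing about the gene's regulation outside the window.

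Wif1, a secreted protein that binds Wnt ligands, read 5.06, 5.16 and 4.78 in wildtype and 6.43, 6.06 and 6.71 in activated kidneys. All 3 wildtype values were dim and all 3 activated values were above them. The difference was 1.40 (SE 0.24, adjusted p = 0.251 in limma), and against the bacterial control level the activated kidneys were at least 2.19-fold higher. Nkd2, an intracellular inhibitor that binds Dishevelled, read 5.71, 5.66 and 5.88 in wildtype and 6.96, 6.78 and 6.87 in activated kidneys. Every activated value was higher by more than the whole range of the wildtype group. The difference was 1.12 (SE 0.19, adjusted p = 0.244), and a second probe set gave 1.28. Kremen1, a co-receptor of the Dickkopf inhibitors, differed by 0.71 without overlap, with dim values in both groups. Sfrp2, a secreted Frizzled-related inhibitor, differed by 0.40, with wildtype 1 (8.788) just above activated 1 (8.786).

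Axin2, the scaffold of the destruction complex and the most widely used target of the pathway, read 6.53, 6.97 and 7.28 in wildtype and 7.55, 7.46 and 7.12 in activated kidneys. Activated 3 was below wildtype 3, so the groups overlapped, and the difference was 0.45 (SE 0.23, adjusted p = 0.835); a second probe set (0.07) was dim in all 6 arrays. Dkk1, which blocks the Lrp co-receptors, read 6.10, 6.62 and 6.09 against 6.89, 6.60 and 6.57 (difference 0.42). Wildtype 2 lay above activated 2 and 3, so the groups overlapped. Notum, an enzyme that removes the lipid of Wnt ligands, differed by 0.13, and Nkd1, the paralog of Nkd2, by 0.16. Frzb differed by -0.12 and Rnf43, a ligase that removes Frizzled receptors, by -0.33. The direction of Notum, Nkd1 and Frzb turned under some of the other settings tried, given in the closing part.

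**Figure D2:**
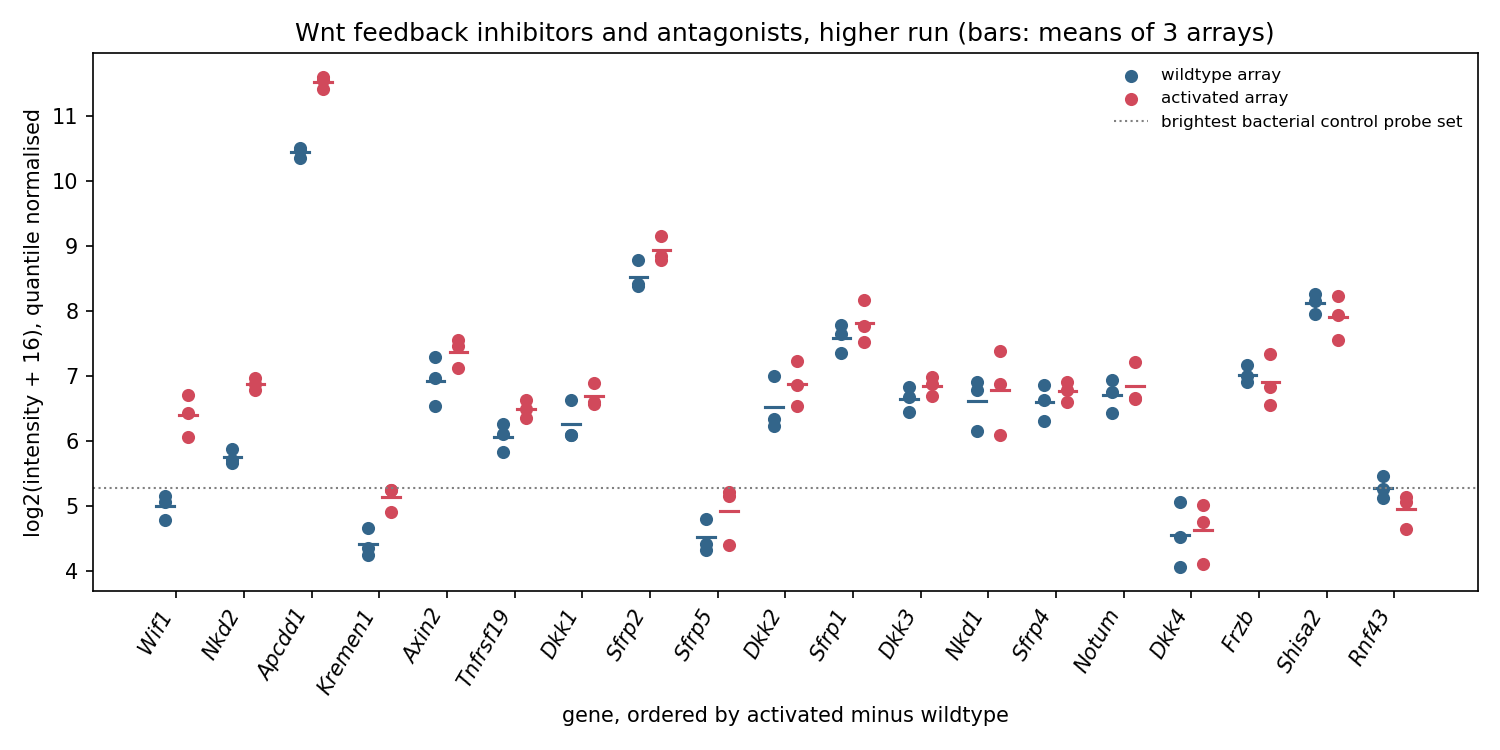
Each point is 1 array of the higher run, blue for wildtype and red for activated, with bars at the means of 3 and the log2(intensity + 16) value on the y axis. The 19 measured feedback inhibitors and antagonists run from the largest to the lowest difference. Wif1, Nkd2, Apcdd1, Kremen1 and Tnfrsf19 show no overlap between the groups, and from Axin2 on the points of most genes interleave.

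Among other genes known as canonical Wnt targets few stood apart. Of 22 measured, 15 were higher, with a median of 0.05, and 3 (13.6%) were higher at an unadjusted p under 0.05. That median was 0.15 without wildtype 2, 0.14 without wildtype 1, 0.14 without activated 1, 0.09 without activated 3, 0.08 without wildtype 3 and 0.07 without activated 2. Prdm1, a transcriptional repressor, read 5.86, 6.14 and 6.14 in wildtype and 6.75, 6.77 and 6.71 in activated kidneys (difference 0.70). Twist1, a factor of mesenchymal cells, differed by 0.71 and Sgk1, a kinase that regulates sodium channels, by 0.46. None of the 3 overlapped between groups, and their adjusted p-values lay between 0.548 and 0.659. Ccnd1, the cyclin that carries cells into division, differed by -0.17 with overlap.

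Wnt ligands, receptors and R-spondins did not stand above the background. Of 38 measured, 14 were higher and 24 lower, with a median of -0.04. One was lower at an unadjusted p under 0.05, Wnt1 (-0.70), with dim values in wildtype 2 and in all activated arrays. Wnt4, the ligand of the induced mesenchyme, read 8.86, 8.92 and 9.03 in wildtype and 8.75, 8.55 and 8.80 in activated kidneys. The groups did not overlap, and the difference was -0.24 (SE 0.12). Of 24 genes of the destruction complex, Tcf factors and cofactors 5 were higher and 19 lower, with a median of -0.07, and none passed an unadjusted p of 0.05.

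Genes of endothelial cells, which line the vessels that grow into the kidney, were higher in the activated arrays. All 19 of the measured genes on the list were higher, with a median difference of 0.43. Of these, 8 (42.1%) were higher at an unadjusted p under 0.05, beside 3.20% of all genes, and 9 (47.4%) did not overlap, beside 5.60%. None passed the adjusted threshold of limma. The summed intensity was 1660 to 1820 in wildtype and 2410 to 2820 in activated arrays. The median shift of the list from the wildtype mean was 0.44, 0.36 and 0.39 in activated 1, 2 and 3, and -0.04 to 0.08 in the wildtype arrays. Without wildtype 2 and activated 3 the count was 16 of 19, with 5 at an unadjusted p under 0.05.

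Sox17, a transcription factor of arterial endothelium, read 7.83, 7.85 and 7.76 in wildtype and 8.65, 8.67 and 8.63 in activated kidneys. The arrays of a group lay within 0.1 of each other, and the groups were far apart. The difference was 0.83 (SE 0.12, adjusted p = 0.148 in limma), and its other probe set gave 0.40. Cd34, a surface glycoprotein of endothelium and blood progenitors, read 6.90, 6.71 and 6.80 against 7.72, 7.86 and 7.56 (difference 0.91, adjusted p = 0.261). The related factors Sox7 and Sox18 differed by 0.63 and 0.54, and Kdr, the main receptor of the growth factor Vegf, by 0.57. None of these 4 overlapped between the groups. Cdh5, the cadherin of endothelial junctions, differed by 0.78 with overlap. Pecam1, Erg and Tie1 were dim in both groups.

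Beside the list stood Aplnr, the apelin receptor of sprouting endothelium, with the largest difference among genes without overlap. It read 4.14, 4.21 and 4.15 in wildtype and 5.73, 6.21 and 6.52 in activated kidneys. The wildtype values were all dim, so the difference of 1.98 (SE 0.25, adjusted p = 0.134) amounts to an activated mean at least 1.84-fold above the bacterial control level. The other probe set of Aplnr (-0.01) was dim in all 6 arrays. In the lower run Aplnr read 6.95, 5.88 and 6.94 in wildtype and 6.67, 6.75 and 7.84 in activated arrays (difference 0.50, with overlap). Rgs5, a regulator of G protein signalling that marks pericytes, read 9.30, 9.56 and 9.36 in wildtype and 10.26, 10.93 and 10.60 in activated kidneys. Its difference was 1.19 (SE 0.16, adjusted p = 0.148), with 1.46, 0.30 and 0.54 from its other probe sets. In the lower run Rgs5 differed by 0.43 with overlap. Rgcc, a cell cycle regulator, differed by 1.42, with activated 3 at 6.41 close above wildtype 3 at 6.28.

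**Figure D3:**
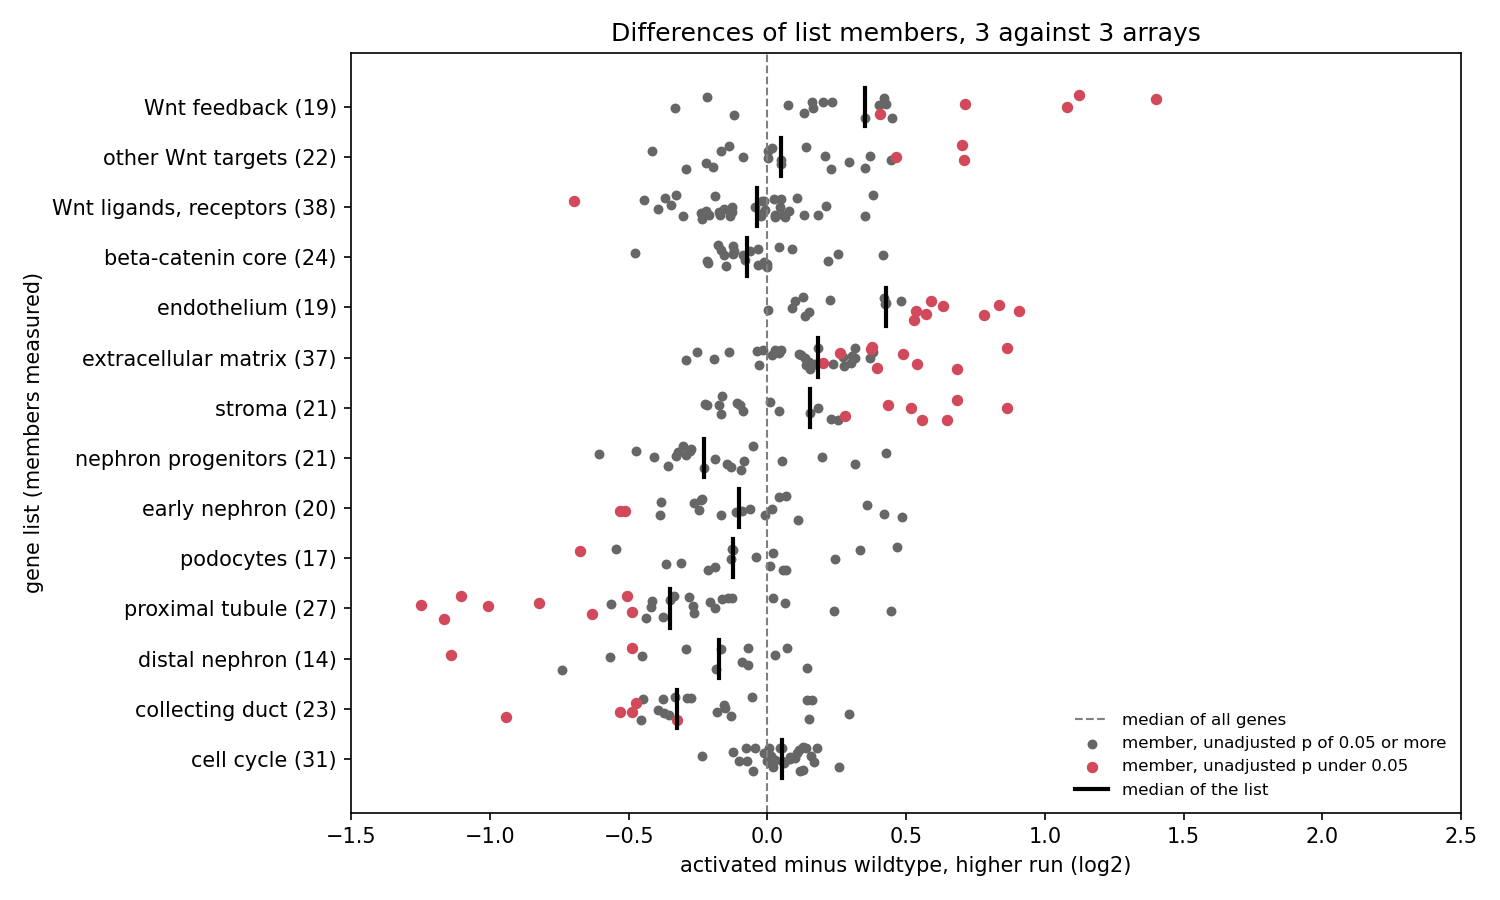
Each point is a measured member of a gene list, with activated minus wildtype (log2) on the x axis, red where the unadjusted p is under 0.05; black bars are list medians and the dashed line is the median of all genes (0.00). The list medians are 0.35 for the feedback inhibitors, 0.43 for the endothelium, -0.35 for the proximal tubule and -0.33 for the collecting duct, and the members of each list spread widely about them.

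Genes of the extracellular matrix, the collagens and small proteoglycans made mainly by stromal cells, also stood higher. Of 37 measured, 30 were higher, with a median of 0.18. Of these genes, 9 (24.3%) were higher at an unadjusted p under 0.05 and none was lower. The summed intensity was 37100 to 40200 in wildtype and 43400 to 48400 in activated arrays. Without wildtype 2 and activated 3 the count was 29 of 37, with 5 at an unadjusted p under 0.05; without wildtype 2 alone it was 28 of 37, also with 5, and without activated 2 it was 30 of 37 with 6.

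Decorin (Dcn), a proteoglycan that binds collagen fibrils, read 10.29, 9.93 and 9.97 in wildtype and 10.95, 11.01 and 10.82 in activated kidneys. Every activated array was at least 0.5 above every wildtype array, and the difference was 0.86 (SE 0.11, adjusted p = 0.146). Biglycan (Bgn), its close relative, differed by 0.49, lumican (Lum) by 0.68 and the collagen chain Col5a1 by 0.39, all without overlap. Ccn2, a matrix-associated growth factor, read 10.65, 10.62 and 10.61 against 11.12, 11.33 and 11.45 (difference 0.67, SE 0.10, adjusted p = 0.148). Its wildtype arrays lay within 0.1 of each other and all activated arrays lay above them. These genes were bright, and none passed the adjusted threshold of limma.

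The list of renal stroma, which shares members with the matrix list, was mixed. Of 21 measured, 13 were higher and 8 lower, with a median of 0.15, and 7 (33.3%) were higher at an unadjusted p under 0.05. Pdgfrb, the receptor of pericytes and mesangial cells, read 9.94, 9.94 and 10.19 in wildtype and 10.53, 10.41 and 10.42 in activated kidneys (difference 0.43), and did not overlap. The contractile proteins Tagln and Acta2 differed by 0.52 and 0.28, also without overlap. Foxd1, the transcription factor of stromal progenitors, differed by -0.22 and was lower in every activated array. Pdgfra, a receptor of interstitial fibroblasts, differed by -0.09 with overlap.

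Genes of the proximal tubule, the segment that takes up filtered protein, sugar and amino acids, were lower in the activated arrays. Of 27 measured, 23 were lower, with a median of -0.35. Of these genes, 8 (29.6%) were lower at an unadjusted p under 0.05, beside 3.16% of all genes, and 10 (37%) lay below without overlap, beside 5.73%. None passed the adjusted threshold of limma. The summed intensity was 1660 to 1910 in wildtype and 1190 to 1460 in activated arrays. The median shift from the wildtype mean was -0.19, -0.42 and -0.48 in activated 1, 2 and 3, and -0.01 to 0.03 in the wildtype arrays. Activated 3 is also the array that stood apart in the Gapdh ratio; without it 22 of 27 were lower, with a median of -0.32. The 8 genes at an unadjusted p under 0.05 became 4 without activated 2, 5 without wildtype 2 and 4 without wildtype 2 and activated 3, where 21 of 27 were lower. These genes were faint: after removal of the dimmest 40% of genes only 2 of the 27 were left, with a median of -0.06.

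Cubn and Amn, the 2 proteins of the cubilin receptor complex that takes up filtered protein, differed by -1.25 and -1.17, with dim values among the activated arrays of both. Amn read 6.67, 7.19 and 6.69 in wildtype and 6.17, 4.82 and 6.07 in activated kidneys, with a dim value only in activated 2. Cubn read 5.81, 6.65 and 5.93 against 5.79, 4.19 and 4.67, so activated 1 lay just under wildtype 1, activated 2 and 3 were dim, and a second probe set gave -0.24. Lrp2 (megalin), their partner in uptake, read 6.60, 6.72 and 6.95 against 6.33, 6.20 and 6.27 (difference -0.49) without overlap. Keg1, a kidney gene related to glycine acyltransferases, read 6.84, 6.88 and 6.81 against 6.18, 6.30 and 6.15 (difference -0.63, SE 0.18), with groups well apart. Hnf4a, the transcription factor of proximal tubule identity, differed by -0.82 with overlap.

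The 10 largest negative differences without overlap held Amn, Cubn, Gtsf1l (-1.16), C030006K11Rik (-1.26) and 6 more genes. Gtsf1l and C030006K11Rik were dim in all 3 activated arrays. Xpnpep2, a brush border peptidase, read 5.52, 5.76 and 5.94 in wildtype and 4.53, 4.48 and 4.37 in activated kidneys (difference -1.28). The activated values were dim, and the wildtype mean was at least 1.39-fold higher. Slc13a3, a carrier of dicarboxylates, differed by -1.24 with dim activated values, though its 4 probe sets ran from -1.24 to 0.13. Slc23a1, a vitamin C carrier, differed by -1.24, with dim values in activated 2 and 3, and Aoc1, an amine oxidase, by -1.22, with a dim value in activated 2. The largest negative difference was that of Slc30a3, a zinc carrier best known from synapses (-1.36), with the wildtype mean at least 1.78-fold higher. S100g, a calcium-binding protein of the distal tubule, read 7.63, 7.18 and 7.80 against 6.50, 6.72 and 5.49 (difference -1.30), with activated 3 lowest.

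Collecting duct and urothelial genes were also lower, and genes of the ureteric bud tip were split evenly. Of 14 tip genes 7 were higher and 7 lower (median -0.05), with 1 higher and 1 lower at an unadjusted p under 0.05. Of 23 genes of the collecting duct and urothelium 19 were lower, with a median of -0.33. At an unadjusted p under 0.05, 5 (21.7%) were lower, beside 3.16% of all genes. Without overlap 2 (8.7%) lay below, beside 5.73% of all genes. Cdh16, the kidney cadherin, read 10.51, 10.62 and 10.90 against 10.52, 10.01 and 10.04 (difference -0.49), with activated 1 level with wildtype 1. Epcam, a surface protein of epithelial cells, read 10.02, 9.81 and 8.79 against 8.51, 8.15 and 9.12 (difference -0.94), and wildtype 3 lay below activated 3. Without wildtype 2 and activated 3 the count was 16 of 23 lower, with a median of -0.20 and 2 at an unadjusted p under 0.05. Without wildtype 1, 2 or 3 or activated 2 alone, 3 were at an unadjusted p under 0.05, and the median was -0.19 without wildtype 2 and -0.21 without activated 3.

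In the loop of Henle and distal tubule 11 of 14 genes were lower (median -0.18). Without overlap 2 (14.3%) lay below, beside 5.73% of all genes. Slc12a1, the salt carrier of the thick ascending limb, read 6.63, 6.96 and 6.51 against 6.01, 4.95 and 5.71 (difference -1.14), without overlap. Calb1, a calcium-binding protein of the connecting tubule and ureteric tree, read 11.34, 11.40 and 11.53 against 11.15, 10.63 and 11.03 (difference -0.49, SE 0.13). Its bright values were lower in all 3 activated arrays. Of 17 podocyte genes 10 were lower (median -0.12), and 4 (23.5%) lay below without overlap, beside 5.73% of all genes. At an unadjusted p under 0.05 in limma, 1 (5.88%) was lower, beside 3.16% of all genes. Npnt, a matrix protein of the glomerulus and ureteric bud, read 9.60, 9.56 and 9.71 against 9.10, 8.84 and 8.90 (difference -0.68, SE 0.11, adjusted p = 0.244), without overlap, and its 5 probe sets ran from -0.75 to -0.05. Nphs1, the slit diaphragm protein nephrin, differed by 0.33 with overlap.

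**Figure D4:**
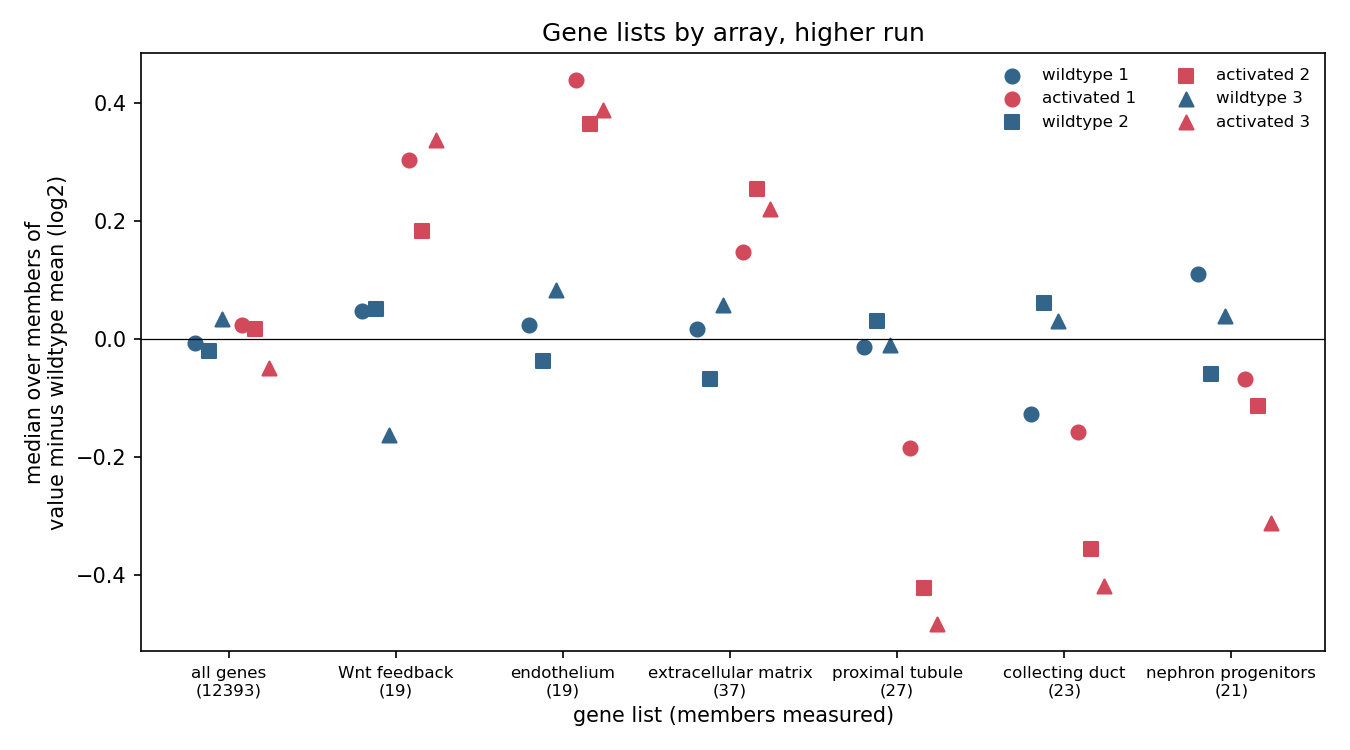
For each gene list on the x axis, each symbol is 1 array of the higher run, and the y axis gives the median over the members of the value minus the gene's wildtype mean (log2). The activated arrays (red) lie above all wildtype arrays (blue) for the feedback inhibitors, the endothelium and the matrix, and below them for the proximal tubule and the collecting duct; over all genes the 6 arrays lie between -0.05 and 0.03.

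Nephron progenitors, the cap mesenchyme cells from which nephrons form, were lower by small amounts. Of 21 genes 17 were lower, with a median of -0.23, and none passed an unadjusted p of 0.05. Six2, the factor that keeps these cells undifferentiated, read 10.17, 9.95 and 10.32 in wildtype and 9.96, 10.24 and 9.35 in activated kidneys (difference -0.29). The groups overlapped, and activated 3 was the lowest array. Cited1, a co-activator found in the same cells, read 8.54, 8.50 and 8.48 against 7.91, 8.14 and 8.48 (difference -0.33), with activated 3 just under the lowest wildtype array. Without activated 3 the median of the list was -0.11, with 15 of 21 lower. Among early nephron genes 13 of 20 were lower (median -0.10). Without overlap 4 (20%) lay below, beside 5.73% of all genes, and 1 (5%) above. At an unadjusted p under 0.05 in limma, 2 (10%) were lower, beside 3.16% of all genes. The Notch ligand Dll1 (-0.51) and the renal vesicle factor Lhx1 (-0.53) were lower without overlap.

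Lists of general cell states had medians close to that of all genes. The 31 cell cycle genes had a median of 0.05 and none at an unadjusted p under 0.05. Medians were -0.04 for hypoxia and glycolysis, -0.02 for p53 targets, 0.02 for heat shock proteins and 0.12 for the interferon response. Macrophage genes had a median of 0.11, with 1 of 23 higher and 1 lower at an unadjusted p under 0.05. Genes of gonad and adrenal had a median of -0.02. Muscle genes went both ways: their median was -0.20, while 3 of 23 (13%) were higher at an unadjusted p under 0.05 and 5 (21.7%) lay above without overlap, Acta2 among them. Of 27 Hox genes 3 (11.1%) were lower at an unadjusted p under 0.05, with a list median of -0.16.

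Some of the largest differences belonged to genes of other tissues at faint levels. Krt33a, a hair keratin, read 4.16, 4.06 and 4.17 in wildtype and 6.33, 6.85 and 5.04 in activated kidneys (difference 1.95). Activated 3 was still dim, and the activated mean was at least 1.75-fold higher. Lce1h, a protein of the cornified skin envelope, read 4.92, 5.09 and 4.73 against 6.43, 6.84 and 6.18 (difference 1.57, at least 2.32-fold). Both had a single probe set. Vip, a neuropeptide, differed by 1.31 (at least 1.83-fold). Mab21l1, a gene of eye and craniofacial development, differed by 1.28 (at least 1.1-fold). Its values were dim in all wildtype arrays and in activated 1 and 2. Its other probe set, dim in all arrays but activated 3, gave 0.23. None of these 4 genes passed the adjusted threshold in the higher run, where their adjusted p-values lay between 0.183 and 0.402. In the lower run Mab21l1 was called, with a difference of 3.17 (limma adjusted p = 0.00156) and no overlap. Krt33a (0.10), Lce1h (-0.37) and Vip (0.09) overlapped there.

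The comparison was then set beside the lower run, where the same contrast of 3 against 3 arrays called 74 genes (0.597% of those tested). The runs have separate arrays in both genotypes. Across all genes the differences of the 2 runs correlated at r = 0.131, given as a description over 12393 genes that share arrays within a run. The median SE over all genes was 0.21 in the higher and 0.26 in the lower run, and its part in the counts was not tested. Differences above 1 on the log2 scale were found for 46 genes in the higher and 207 in the lower run. The difference between the runs was itself tested as an interaction of genotype and run, and 41 genes passed (0.331%). For 40 of the 41 the lower run had the larger size. With 1 array left out at a time the count ran from 16 to 47.

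The 74 genes called in the lower run gave a set chosen without the higher arrays, except that the normalisation and the choice of probe set used all 12. In the higher run 53 of the 74 (71.6%) differed in the same direction, where over all genes the runs had the same sign for 55.4%. For 18 (24.3%) the groups of the higher run did not overlap in that direction, beside 7.01% of all genes. None of the 74 had a difference of larger size in the higher run, and choosing genes by their call in the lower run favours this; over all genes 5406 of 12393 had one. Their median difference in the direction of the lower run was 0.19, beside a median size of 1.52 in the lower run.

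Some feedback inhibitors stayed apart between the genotypes in the higher run, and others overlapped. Wif1, whose higher-run values are given above, read 5.17, 4.85 and 4.05 in wildtype and 8.67, 9.04 and 8.95 in activated arrays of the lower run, a difference of 4.20 beside 1.40. Apcdd1 differed by 2.90 in the lower run beside 1.08, and Nkd2 by 3.54 beside 1.12. Each of these 3 was higher in activated kidneys in both runs, and the difference between runs passed the test. Notum differed by 2.89 in the lower run beside 0.13, and Dkk1 by 2.80 beside 0.42. In the lower run Dkk1 read 7.17, 6.93 and 6.67 against 9.54, 9.84 and 9.79, so all its lower-run activated values lay above every value of the higher run. The median over the 19 inhibitors was 1.00 in the lower run beside 0.35. There 15 of the 19 were higher, while Shisa2 (-0.89), Sfrp2 (-0.59), Sfrp1 (-0.56) and Sfrp5 (-0.52) were lower.

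Dcx, which binds microtubules in young neurons, had the smallest p for a difference between the runs. It read 8.39, 8.65 and 8.40 in wildtype and 4.99, 4.83 and 5.39 in activated arrays of the lower run. In the higher run it read 7.89, 7.65 and 8.003 against 7.81, 7.79 and 7.35, with overlap. All 4 of its probe sets were lower in the activated arrays of the higher run, by -0.62 to -0.20, and the one at -0.62 (7.45, 7.38 and 7.38 against 7.07, 6.83 and 6.42) did not overlap. The differences were -3.41 and -0.20, and their difference was 3.21 (adjusted p = 0.000337 in limma). Capn6, a calpain without protease activity found in fetal mesenchyme, differed by -1.98 in the lower and -0.15 in the higher run. Tent5c, a poly(A) polymerase, differed by 2.60 in the lower and -0.25 in the higher run. Nephron progenitor genes had a median of -0.88 in the lower run, where 6 of 21 were called lower, beside -0.23 and none in the higher run. Six2 was among the genes whose difference between the runs passed the test, with -2.01 in the lower run beside -0.29.

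A few genes ran alike or opposite. Gask1b, a kinase-like protein of the Golgi, read 7.67, 7.49 and 7.53 against 8.25, 8.82 and 8.54 in the higher run and differed by 0.97 there and 1.14 in the lower run, without overlap in either. Prdm1 differed by 0.70 and 2.58, with no call for the difference between the runs (adjusted p = 0.081). S100g differed by -1.30 in the higher and 1.32 in the lower run. Endothelial genes had medians of 0.43 and 0.29 in the higher and lower run, with 15 of 19 higher in the lower run, and proximal tubule genes -0.35 and -0.03. Matrix genes had 0.18 and 0.06, with 20 of 37 higher in the lower run, and stromal genes 0.15 and -0.23, with 6 of 21 higher there. In the lower run Dcn and Bgn were also higher in activated arrays without overlap. Lum was lower there without overlap (9.65, 9.99 and 9.69 against 9.61, 9.21 and 9.01). Ccn2 and Col5a1 overlapped, Ccn2 at 8.66, 9.20 and 9.24 against 8.24, 8.69 and 8.69. No endothelial, proximal tubule or matrix gene passed the interaction test, so those lists are not shown to differ. On the stromal list 1 gene passed it.

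**Figure D5:**
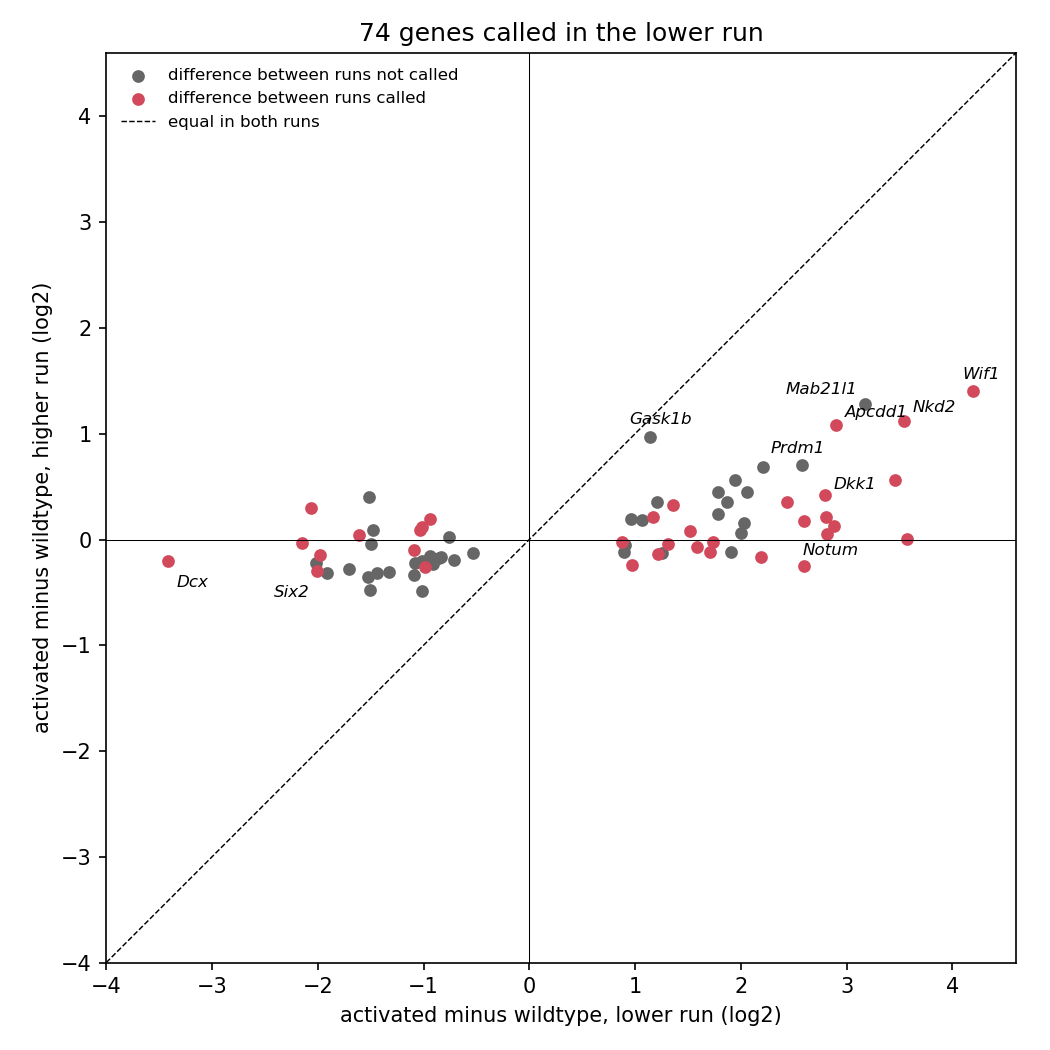
Each point is 1 of the 74 genes called in the lower run, with activated minus wildtype (log2) in the lower run on the x axis and in the higher run on the y axis; red marks the 34 whose difference between runs was called and the dashed line marks equal values. All points lie nearer to 0 on the y axis than on the x axis, with Gask1b closest to the dashed line and Dcx near 0 on the y axis.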

How the data were processed

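Deposited values were intensities on a linear scale for 22690 probe sets, on arrays labelled with an Affymetrix 3' expression kit per the labels' protocols. Trimmed of 2% at each end, every array had the same mean, so the authors had scaled them (software not given in the sources used here). The labels also list 2 dyes, which were not used. Depth is not defined for arrays, and 3 arrays a group limit the precision.

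Values were taken as log2(intensity + 16), which understates changes of dim genes. They were quantile normalised over all 12 arrays, because array quartiles differed by up to 0.29, above a limit of 0.1. Gene symbols came from the platform annotation (20380 probe sets with 1 symbol, 691 with several, 1555 with none listed, 64 controls), and 12369 of 12393 genes matched RefSeq in GRCm38.p6. Genes were fitted with limma 3.58.1 in R 4.3.3 (moderated variances with a trend, Benjamini-Hochberg over 12393 genes, threshold 0.05), within the run and, for the difference between runs, over 4 groups. The calculations were checked on simulated data. Plots were drawn with matplotlib 3.10.9.

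The members, 35 gene lists (838 memberships, 740 measured) and tests were chosen with earlier results of these data known. The naming rule took Ctnnb1 and called genes, the 10 largest differences each way among genes without overlap, at an unadjusted p under 0.05 and not dim, up to 4 genes a list by p and all Wnt feedback genes, the 10 smallest p-values between runs, and 12 of the genes called in the lower run. The text names part of the genes the rule gave. Members outside it, Kdr, Cdh5, Lrp2, Hnf4a, Six2, Foxd1, Pdgfra, Ccnd1, Nphs1, Pecam1, Erg and Tie1, were chosen after their values were seen. A bound such as "at least 2.19-fold" takes the dim group at the brightest bacterial control, 5.27. It compares group means and includes no sampling error. Replicate numbers serve as names and do not pair arrays.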

Additional observations from a re-analysis of the deposited data

Results flagged for a closer look

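The difference between the runs passed the test (limma interaction of genotype and run, adjusted p under 0.05) for 41 genes, of which 34 were also called in the lower run and 1, Apcdd1, in the higher run. For 21 of the 41 the runs had opposite signs. Over all genes the signs were the same for 6868 of 12393 (55.4%), and choosing genes by this test favours opposite signs. Each value below is the difference of the higher run minus that of the lower run on the log2 scale, with 3 against 3 arrays in each run.

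Among Wnt inhibitors it was -2.79 for Wif1, -2.75 for Notum, -2.42 for Nkd2, -2.38 for Dkk1, -1.83 for Frzb and -1.82 for Apcdd1. Of these only Frzb had opposite signs, with -0.12 in the higher and 1.70 in the lower run. In nephron progenitors it was 1.84 for Capn6 and 1.72 for Six2, both nearer to 0 in the higher run. It was 3.21 for Dcx, which had -0.20 in the higher and -3.41 in the lower run. Tent5c, at -2.85, and S100g, at -2.61, had opposite signs in the runs. S100g was close to the threshold, with an adjusted p of 0.0445. Over 21 alternatives the call was kept in 6 for S100g, 9 for Nkd2, 12 for Six2, 12 for Frzb and 20 or 21 for each of the others. What the runs differ in is not given in the labels, and its part in these differences was not tested.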

How the results depend on the processing

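The number of genes called in the higher run was 1. It was 2 with arrays centred on their medians, 2 with the spread taken from all 12 arrays, 3 with robust eBayes, 3 with the Gapdh ratio as a covariate and 8 at an adjusted p under 0.2. It was 0 in limma with each gene's probe sets averaged and 0 without the variance trend, with 748 and 771 genes at an unadjusted p under 0.05. Leaving out 1 array gave 0 to 1, with 581 to 1090 at an unadjusted p under 0.05, and leaving out wildtype 2 and activated 3 gave 0. Apcdd1 kept its direction in all 20 alternatives (0.89 to 1.13) and passed in 14, with adjusted p-values from 0.00118 to 0.263. Genes without overlap numbered 1404, but 869 after removal of the dimmest 40%, 2388 to 3217 without 1 array of the run and 4507 without wildtype 2 and activated 3, since smaller groups overlap less often. The difference between runs was called for 41 genes, for 18 with median centring, 24 without the trend, 88 with array weights and 16 to 47 without 1 array. Of the genes called in the lower run, 70.3% to 86.7% kept their direction in the higher run without 1 array. Directions turned for Notum (-0.0266 with the Gapdh covariate, and -0.058 to 0.24 without 1 array), Nkd1 (-0.12 with that covariate, -0.0545 with array weights, and -0.14 to 0.51 without 1 array), Frzb (0.10 with the mean of probe sets, and -0.34 to 0.057 without 1 array) and Capn6 (0.020 with the mean of probe sets). The proximal tubule median was -0.16 with a pseudocount of 64 and lay between -0.51 and -0.06 over 14 alternatives; the medians of the other 6 lists tried, Wnt feedback, other Wnt targets, endothelium, matrix, collecting duct and nephron progenitors, kept their direction. The cause of these shifts was not tested. No paired analysis was possible because the labels carry no replicate numbers. Levels near the bacterial controls, where many proximal tubule genes lie, limit what these arrays can show.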

Other observations

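A few bright genes not named above were also set apart without overlap, and none passed the adjusted threshold of limma. Igf1, the growth factor of mesenchymal cells, read 9.22, 9.0005 and 9.31 in wildtype and 9.69, 9.61 and 9.61 in activated kidneys (difference 0.46, SE 0.11). Cxcr4, a chemokine receptor on the list of the ureteric bud tip, read 9.22, 9.26 and 9.53 against 9.95, 9.80 and 9.58 (difference 0.44). Fabp4, a fatty acid carrier of fat cells and small vessels, read 8.70, 8.98 and 9.08 against 9.84, 10.30 and 9.37 (difference 0.91), though its 4 probe sets ran from -0.13 to 0.91. Cebpb, a transcription factor of stress and differentiation, read 9.87, 9.90 and 9.73 against 9.19, 9.43 and 9.43 (difference -0.49, SE 0.11). In the lower run Igf1 differed by 0.42, Fabp4 by 0.56, Cxcr4 by -0.29 and Cebpb by 0.07, and the difference between runs was called for none of the 4.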
